A study of Mus musculus with 6 samples.

Results

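The genes described here are the p53 gene Trp53 and 9 genes that the p53 protein is known to activate: Cdkn1a, Mdm2, Ccng1, Bax, Bbc3, Pmaip1, Sesn2, Phlda3 and Eda2r. They were taken by name from the deposited read count and FPKM tables through the GENCODE M21 annotation. All 10 were among the 35275 gene identifiers of the tables, and all 10 passed the filter on low counts that left 16938 genes for testing. The tables hold messenger RNA profiles of the forebrains of 6 C57BL/6 mice at postnatal day 9. In 3 of them (cKO, Pdgfra-CreER:Parp1fl/fl) a tamoxifen-activated recombinase under the control of Pdgfra, which marks oligodendrocyte precursors and also some fibroblasts, could delete the floxed Parp1 gene. The 3 controls were littermates with the same floxed Parp1 gene and no recombinase. Both groups received tamoxifen intraperitoneally on postnatal days 1, 2 and 3, and both sexes were used without a label per mouse.

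The p53 protein is a transcription factor that is held at a low level by the ubiquitin ligase MDM2 and is stabilised when DNA is damaged. It then activates genes that stop the cell cycle, repair or buffer damage, or start apoptosis through the mitochondrial BCL2 family. Mdm2 is itself a p53 target, which closes a negative feedback loop. PARP1, the product of Parp1, builds poly(ADP-ribose) chains on proteins at DNA breaks, and dying oligodendrocyte-lineage cells are a normal feature of the developing forebrain. The comparison of cKO with control therefore asks whether transcripts of this damage and death pathway differed in the forebrain when Parp1 was targeted in the oligodendrocyte lineage.

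Because whole forebrain was sequenced, fewer cells of a type and less RNA per cell cannot be told apart, and a difference limited to the targeted lineage is diluted by all other cells. Total counts ran from 17262042 to 29310193 per library, with 22019 to 22989 genes detected. The targeted gene Parp1 had levels of 90.8, 97.3 and 85.6 CPM in the controls (counts scaled to the library total with TMM factors, in the order of replicates 1 to 3, as in all series of values below). In cKO it had 80.8, 79.7 and 79.1 CPM, all below the controls, as was found for 5.86% of all tested genes. The log2 fold change of Parp1 was -0.19, or 0.875-fold. It was not called by edgeR's quasi-likelihood test (adjusted p = 0.572). Forebrain identity was visible in neuronal, astrocytic and oligodendroglial markers, none of which was at 0. Control replicate 3 stood apart: its 8 striatal markers summed to 224 CPM, where the other 5 libraries ran from 694 to 902 CPM, and its 8 thalamic markers to 707 CPM, where the others ran from 264 to 310 CPM. Control replicate 1 had 1123 counts of the Y-linked gene Ddx3y, while no other library had more than 1, so sex was not balanced between the groups. Nothing in the labels says more about separate litters or days. The edgeR p-values set the difference between groups against the spread between mice of the same group, which includes control replicate 3.

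The p53 protein binds DNA through a pair of 10-base half-sites. RefSeq promoter windows (GRCm38.p6, 250 bases before to 50 bases after an annotated start) were available for 9 of the 10 genes, the exception being Pmaip1. An exact match to the p53 half-site consensus, which reads the same on both strands, was found for 5 of these 9 genes, against 9.55% of the 27025 genes with a window. The matched stretches are shown because they hold the letters that p53 is known to recognise; a match is a description, and binding was not measured here. Capitals mark the half-site, each stretch is written 5′ to 3′ on the strand of its gene, and none overlaps an annotated exon.
Cdkn1a (chr17:29090891-29090952, plus strand): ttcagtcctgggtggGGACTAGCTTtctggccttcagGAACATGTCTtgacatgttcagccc
Mdm2 (chr10:117710920-117710959, minus strand): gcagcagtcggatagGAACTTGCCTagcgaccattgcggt
Ccng1 (chr11:40755447-40755486, minus strand): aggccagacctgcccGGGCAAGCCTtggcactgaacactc
Bax (chr7:45467075-45467114, minus strand): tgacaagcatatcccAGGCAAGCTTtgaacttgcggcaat
Trp53 (chr11:69580269-69580308, plus strand): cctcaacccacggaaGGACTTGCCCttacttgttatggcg
Cdkn1a alone had 2 exact half-sites, 12 bases apart, in the window of its upstream start. A pair of exact matches within 13 bases of each other occurred in 24 of all 32851 windows, or 0.0731%. In the Cdkn1a stretch the 10 bases directly after GAACATGTCT miss the consensus only at their first base. They are in lower case because only exact matches were marked, so the marked pair need not be the pair that p53 binds. The windows of Bbc3, Sesn2, Phlda3 and Eda2r held no exact match, which says only that these letters are absent from those 300 bases.

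The 10 genes differed widely in level. On the FPKM scale, which divides by gene length, Bax was highest at 61.9 to 73.1 FPKM over the 6 libraries, above 94.9% of tested genes. Cdkn1a followed at 17.0 to 23.5 FPKM, Bbc3 at 15.8 to 20.5 FPKM and Mdm2 at 15.3 to 17.9 FPKM, and the ranges of these 3 overlapped. Ccng1 was at 8.94 to 11.9 FPKM, Phlda3 at 7.01 to 9.77 FPKM and Trp53 itself at 6.89 to 9.36 FPKM, again with overlapping ranges. Sesn2 lay lower at 2.95 to 3.99 FPKM, separate from its neighbours in the order. Pmaip1, at 0.754 to 1.06 FPKM, and Eda2r, at 0.285 to 0.739 FPKM, were the lowest and did not overlap each other. So the apoptotic effectors spanned the whole range, with Bax at the top and Pmaip1 near the bottom, and the receptor Eda2r was the least abundant transcript of the set. The length behind each FPKM value is the one the deposited table implies, from 869 bases for Bax to 4752 bases for Eda2r.

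**Figure D1:**
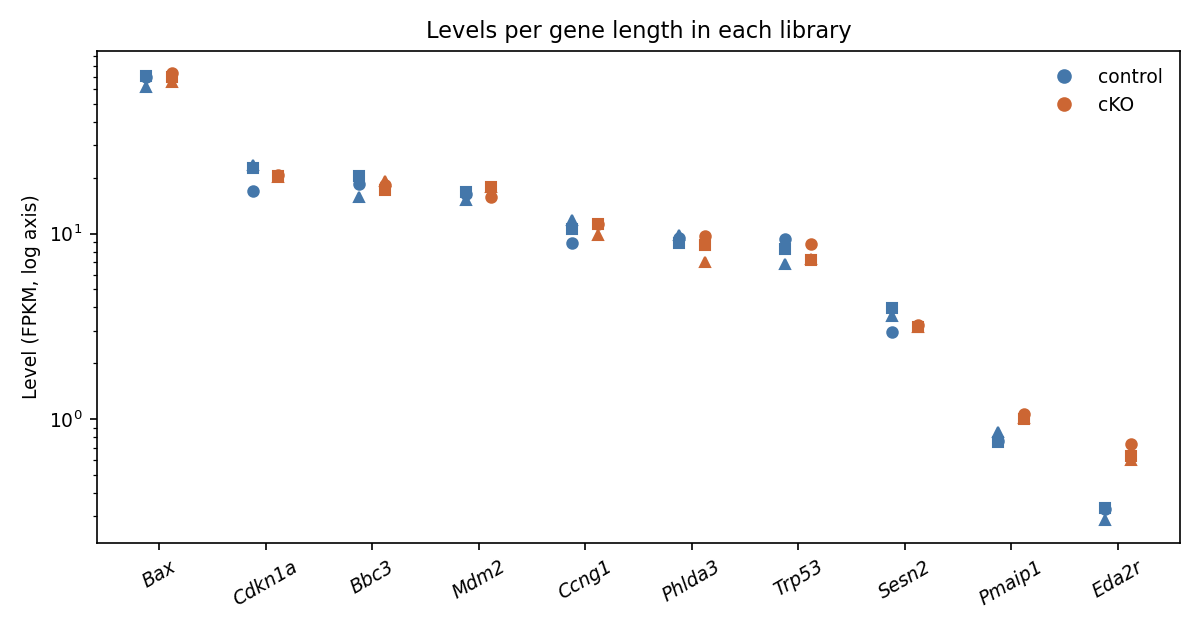
FPKM of the 10 genes in each library on a log axis, ordered by mean level, with control in blue and cKO in orange (circle, square and triangle for replicates 1, 2 and 3). Bax lies at 61.9 to 73.1 FPKM and Eda2r at 0.285 to 0.739 FPKM, and Pmaip1 and Eda2r are the genes whose groups do not overlap.

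Between cKO and control, Eda2r, a TNF receptor family member, had an estimated 2.09 times its control level in cKO without passing the adjusted test, and Pmaip1 had 1.30 times. The estimates for Trp53 and the other 7 targets lay between 0.901-fold and 1.07-fold. None of the 10 genes (0) was called by edgeR's quasi-likelihood test at an adjusted p under 0.05, where 0.266% of all tested genes were called, 0.059% as higher and 0.207% as lower in cKO. The count was also 0 by DESeq2, which called 0.667% of genes, and by limma-voom with quality weights, which called 0.366%. At an unadjusted p under 0.05 there was 1 of the 10, Eda2r, against 6.27% of all tested genes. The groups did not overlap for 2 of the 10, Pmaip1 and Eda2r, both higher in cKO, against 6.08% of tested genes in that direction and 5.86% in the other. Of the 10 log2 fold changes 6 were positive, with a median of 0.02, while the median of all tested genes was -0.00. The set is small and was chosen with earlier results of these data known, so the list is a description and was not tested as a group.

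**Figure D2:**
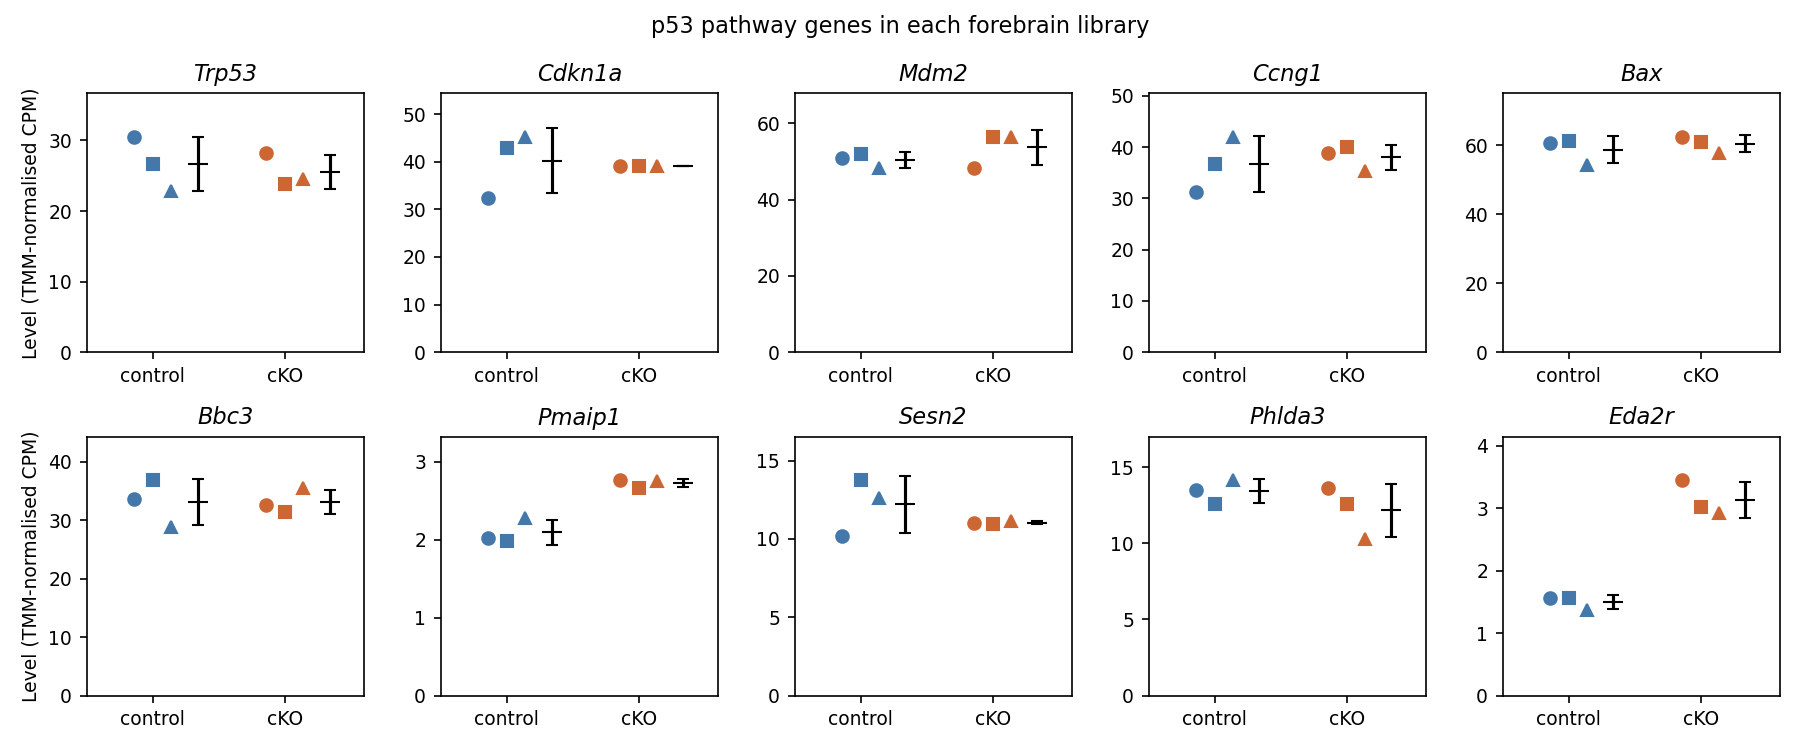
TMM-normalised CPM of each gene in the 3 control (blue) and 3 cKO (orange) libraries, with circle, square and triangle for replicates 1, 2 and 3, and the group mean ± SD in black. The groups overlap for 8 of the 10 genes; for Pmaip1 and Eda2r all 3 cKO libraries lie above all 3 controls.

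The values of Trp53 and of its feedback inhibitor overlapped between the groups. Trp53 (ENSMUSG00000059552, chromosome 11, 69580359 to 69591873 in mm10) had 30.5, 26.7 and 22.8 CPM in the controls and 28.3, 23.8 and 24.5 CPM in cKO. Every cKO value lay within the control range. The log2 fold change of cKO against control was -0.06, with a 95% confidence interval from -0.31 to 0.18 (edgeR adjusted p = 0.947). Mdm2, the ligase that marks p53 for degradation (ENSMUSG00000020184, chromosome 10, 117688875 to 117710758), was at 51.0, 52.1 and 48.2 CPM in controls and at 48.4, 56.3 and 56.6 CPM in cKO. In cKO replicates 2 and 3 it was above every control, while cKO replicate 1 lay among them. Its log2 fold change was 0.09 (95% confidence interval -0.07 to 0.26, edgeR adjusted p = 0.883), which on the linear scale runs from 0.950-fold to 1.20-fold.

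Genes of growth arrest and stress buffering also had overlapping groups. Cdkn1a, which encodes the cyclin-dependent kinase inhibitor p21 (ENSMUSG00000023067, chromosome 17, 29090976 to 29100727), had 32.4, 42.8 and 45.3 CPM in the controls and 39.0, 39.2 and 39.1 CPM in cKO. The cKO mice were nearly alike and lay inside the wider control range, with means of 40.1 ± 6.83 CPM in controls and 39.1 ± 0.077 CPM in cKO (SD, n = 3). The log2 fold change was -0.04, with an interval from -0.28 to 0.19 (edgeR adjusted p = 0.964), which on the linear scale runs from 0.826-fold to 1.14-fold. Ccng1, cyclin G1, a strong and early p53 target (ENSMUSG00000020326, chromosome 11, 40748552 to 40755311), was at 31.3, 36.8 and 42.1 CPM in controls and 38.8, 40.0 and 35.3 CPM in cKO (log2 fold change 0.05, interval -0.18 to 0.27). Control replicate 1 was the lowest library for both genes and control replicate 3 the highest.

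Sesn2, sestrin 2, which restrains mTORC1 signalling under stress (ENSMUSG00000028893, chromosome 4, 132492032 to 132510501), was at 10.2, 13.8 and 12.6 CPM in controls and at 11.0, 10.9 and 11.1 CPM in cKO. Its log2 fold change was -0.15 (interval -0.43 to 0.13, edgeR adjusted p = 0.888). Without control replicate 1, the lowest library for both genes, the log2 fold changes of Sesn2 and Cdkn1a were -0.26 and -0.17 (edgeR adjusted p = 0.675 and 0.66). Phlda3, a pleckstrin homology protein that opposes AKT (ENSMUSG00000041801, chromosome 1, 135766119 to 135769136), was at 13.5, 12.6 and 14.1 CPM in controls and 13.6, 12.6 and 10.3 CPM in cKO. Replicates 2 and 3 of cKO lay below every control, replicate 2 by less than the rounding of these values, and without replicate 3 the log2 fold change moved from -0.15 to -0.04. Exons of Cdkn1a overlap a gene on the opposite strand by 273 bases in this annotation, so its counts are less certain if strand was not used.

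Of the mitochondrial apoptosis genes, Bax and Bbc3 had overlapping groups and Pmaip1 did not. Bax, a pore former of the outer mitochondrial membrane (ENSMUSG00000003873, chromosome 7, 45461697 to 45466898), was at 60.7, 61.1 and 54.3 CPM in controls and 62.5, 61.1 and 57.7 CPM in cKO. This was the most precise of the 10 estimates, with a log2 fold change of 0.04 ± 0.07 (SE) and an interval from -0.11 to 0.20 (edgeR adjusted p = 0.946). Bbc3, the BH3-only protein PUMA, which unleashes BAX (ENSMUSG00000002083, chromosome 7, 16308393 to 16318205), was at 33.6, 36.9 and 28.9 CPM in controls and 32.6, 31.4 and 35.4 CPM in cKO. The group means were 33.1 CPM in both, and the log2 fold change was 0.00 (interval -0.21 to 0.21). Exons of Bax overlap those of a read-through gene on its own strand by 192 bases, and that gene is not a row of the tables.

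Pmaip1, the BH3-only protein NOXA (ENSMUSG00000024521, chromosome 18, 66458533 to 66465565), was at 2.02, 1.98 and 2.28 CPM in controls and at 2.76, 2.67 and 2.75 CPM in cKO, from 35 to 50 and 56 to 79 counts per library. All 3 cKO libraries were above all 3 controls. The log2 fold change was 0.38, but its interval ran from -0.08 to 0.84 (edgeR unadjusted p = 0.1, adjusted p = 0.837). An exact two-sided permutation test of the CPM values had a p of 0.1, which is the lowest value possible with 3 mice a group.

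Eda2r showed the largest difference of the set. It encodes XEDAR, an X-linked TNF receptor family member that binds the A2 form of ectodysplasin (ENSMUSG00000034457, chromosome X, 97333840 to 97377216). The controls had 27, 34 and 30 reads of it and the cKO mice 70, 75 and 84, which is 1.56, 1.56 and 1.37 CPM against 3.45, 3.03 and 2.92 CPM. Every cKO library was thus well above every control, with group means of 1.50 ± 0.111 and 3.13 ± 0.281 CPM (SD, n = 3). On the log2 scale the difference was 1.06 ± 0.22 (SE) with an interval from 0.58 to 1.55, that is 1.49-fold to 2.92-fold. Its unadjusted p of 0.00044 ranked 63rd of the 16938 genes, and edgeR's adjusted p was 0.118. A log2 fold change over 1 in either direction was found for 0.897% of all tested genes.

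The call on Eda2r depended on which genes were tested. With no filter on low counts, its adjusted p by edgeR was 0.0342, with 0.429% of genes called in that fit, and Eda2r was then the 1 called gene of the 10. Its log2 fold change stayed between 0.99 and 1.11 with any 1 library omitted, with adjusted p between 0.18 and 0.432 by edgeR. It was 1.09 with control replicate 1 omitted, the library with Y-linked reads, and 0.99 with control replicate 3 omitted. On log2(FPKM + 1) with no filter it was 0.33, since a pseudocount of 1 exceeds the level of this gene.

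**Figure D3:**
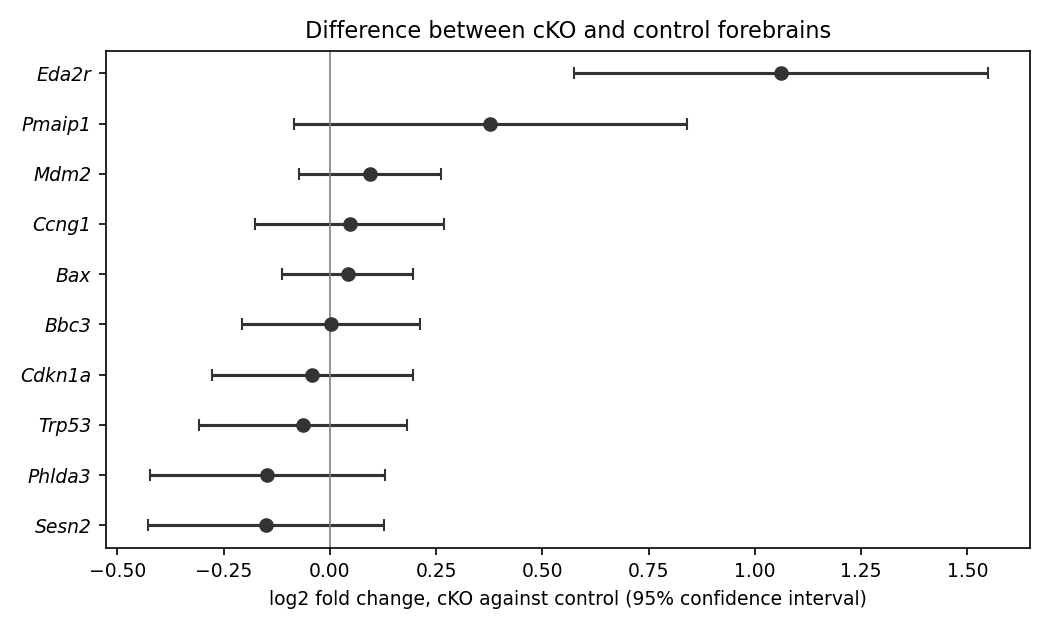
log2 fold change of cKO against control for each gene, with its 95% confidence interval from edgeR. The intervals of 9 genes include 0, and that of Eda2r runs from 0.58 to 1.55.

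Markers of some cell types moved alongside. All 12 oligodendrocyte markers had negative log2 fold changes and 9 were called lower, where 0.207% of all tested genes were called lower. The remaining markers, Mog, Mobp and Cldn11, had overlapping groups, and Mog was practically level at -0.0039. The summed level of the 12 was 739 to 859 CPM in controls and 303 to 348 CPM in cKO. The 8 precursor markers summed to 515 to 572 CPM in controls and 311 to 383 CPM in cKO, with 5 of them called lower. All 8 microglia markers had positive log2 fold changes, none called, with summed levels of 209 to 298 CPM in controls and 308 to 369 CPM in cKO. For 9 of 10 cycling-cell markers the log2 fold change was positive, none called, and their summed levels overlapped. Over all tested genes 49.8% of log2 fold changes were positive. The 10 neuronal and 8 astrocyte markers had 0 called and 0 with groups apart in each list. Of these, 5 neuronal and 5 astrocyte markers had positive log2 fold changes, with list medians of 0.01 and 0.03. None of these markers was at 0. Their part in the Eda2r and Pmaip1 values was not tested.

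The genes whose profile was most like that of Eda2r were found by Pearson's r of log2 CPM over the 6 libraries, among 15240 genes with a mean of at least 1 CPM. They were Tnfrsf1a (r = 0.997), 1700124L16Rik (0.996), the unnamed identifier ENSMUSG00000044341 (0.990), Inafm2 (0.990) and Cntrob (0.988). Each was higher in all 3 cKO libraries than in all 3 controls, as were 6.08% of all tested genes. This follows from choosing them for their likeness to Eda2r and adds no separate result. Tnfrsf1a, the receptor for tumour necrosis factor, was at 12.6 ± 0.584 CPM in controls and 16.8 ± 0.498 CPM in cKO (SD, n = 3). A likeness in profile is not a likeness in size. ENSMUSG00000044341 went from 0.134 CPM in controls to 11.6 CPM in cKO (log2 fold change 6.41, edgeR adjusted p = 6.97e-08). The other named genes had log2 fold changes from 0.19 to 0.57 and were not called. The 6 points fall into 2 separate groups, and 180 genes had r over 0.9.

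No library carried the whole set up or down. Control replicate 3 held the lowest value for 5 genes (Trp53, Mdm2, Bax, Bbc3 and Eda2r) and the highest for 3 (Cdkn1a, Ccng1 and Phlda3). Control replicate 1 was lowest for Cdkn1a, Ccng1 and Sesn2 and highest for Trp53. The summed level of the 10 genes was 267 to 286 CPM in controls and 276 to 281 CPM in cKO, so the groups overlapped.

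**Figure D4:**
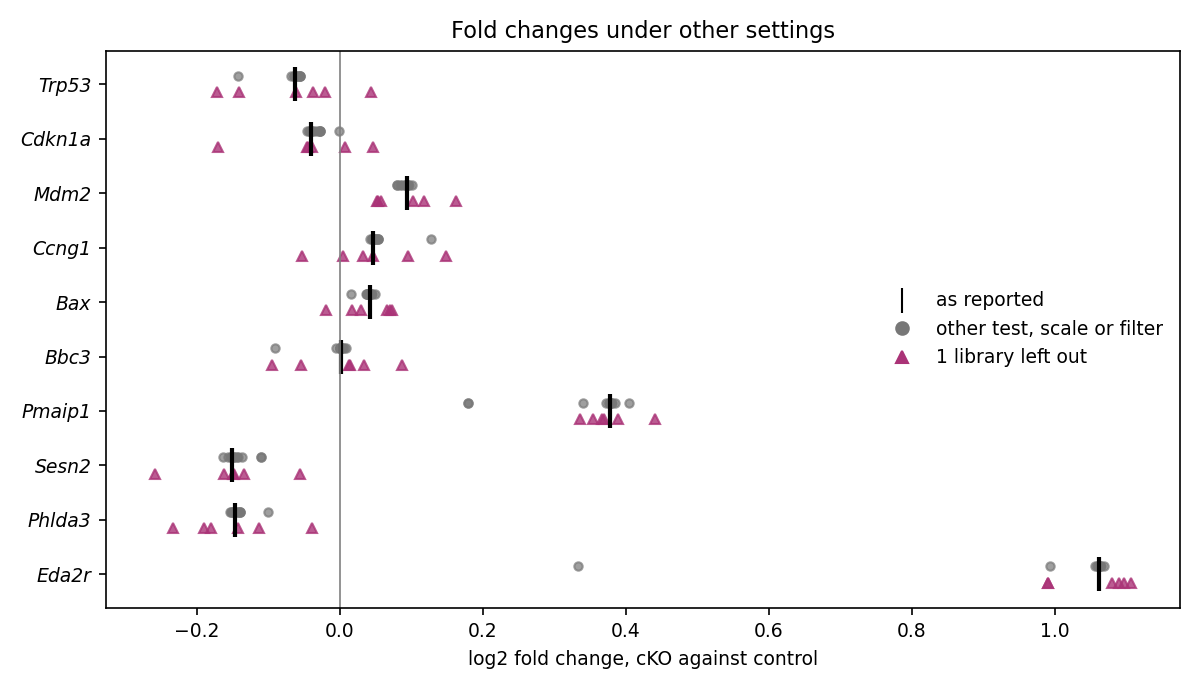
log2 fold change of each gene as reported (black bar), under another test, scale or filter (grey circles) and with 1 library left out (triangles). Eda2r stays between 0.99 and 1.11 on leaving out a library, while Trp53, Cdkn1a, Ccng1, Bax and Bbc3 cross 0.

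Other textbook targets of p53 held no called gene. Of 26 listed, 25 were tested and 0 passed, with 4 at an unadjusted p under 0.05, where 6.27% of all tested genes had one, and a median log2 fold change of 0.05. The smallest p belonged to Tnfrsf10b, the mouse TRAIL death receptor, at 1.51 ± 0.215 CPM in controls and 2.48 ± 0.641 CPM in cKO (SD, n = 3; log2 fold change 0.70, interval 0.12 to 1.28, edgeR adjusted p = 0.712). Abhd4, a lipid hydrolase, followed in the other direction at -0.19 (adjusted p = 0.768). Tnfrsf10b, Gtse1 and Ephx1 were the 3 of 25 whose cKO values lay wholly above controls, against 6.08% of all tested genes, and there was none wholly below, against 5.86%. Targets with higher counts had narrower intervals. Plk2, a polo-like kinase, had the most reads of the list, and its interval lay just above 0 (0.19, interval 0.00 to 0.38, edgeR unadjusted p = 0.0466, adjusted p = 0.785), while that of Abhd4 lay just below (-0.37 to -0.01). Those of Zmat3 (0.15, interval -0.02 to 0.31), Ei24 (0.05, interval -0.09 to 0.18) and Ak1 (-0.01, interval -0.16 to 0.14) included 0. Plk2 and these 3 genes were chosen after their values were seen.

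Genes that act on p53 did not pass either. Of 15 tested regulators 0 were called, 1 had an unadjusted p under 0.05, and the median log2 fold change was 0.03. Hipk2, a kinase that phosphorylates p53, was at 73.7 ± 5.01 CPM in controls and 62.2 ± 7.82 CPM in cKO (SD, n = 3; log2 fold change -0.24, edgeR adjusted p = 0.651). Chek2, a checkpoint kinase of the DNA damage response, had 0.50 from 2.28 CPM in controls (adjusted p = 0.812). Mdm4, the partner of MDM2 and the family relative with the second smallest p, was at 156 CPM in controls and 167 CPM in cKO, a log2 fold change of 0.10. Cdkn2a, which encodes the MDM2 antagonist ARF, had too few counts to be tested.

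The wider apoptosis machinery held no called gene. Of 9 tested pro-apoptotic BCL2 genes besides the ones above, Bid, which links death receptors to mitochondria, had the smallest p: 15.2 ± 0.672 CPM in controls and 12.6 ± 1.58 CPM in cKO, without overlap (SD, n = 3; log2 fold change -0.27, edgeR adjusted p = 0.768). Bid and Bak1 were the 2 of 9 whose cKO values lay wholly below controls, against 5.86% of all tested genes. Bak1 had means of 24.5 CPM in controls and 23.7 CPM in cKO, a log2 fold change of only -0.05. Bmf, another BH3-only gene, was at 0.26. The 4 tested anti-apoptotic genes ran from -0.05 to 0.11, led by Bcl2l1 (0.11) and Mcl1 (0.06), which protect the mitochondrial membrane. Among 18 caspase and apoptosome genes 0 had an unadjusted p under 0.05. The smallest p there was that of Pidd1, a p53-induced activator of caspase signalling, at 0.30 (edgeR adjusted p = 0.835).

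Caspase inhibitors had the highest median of these lists, 0.17 over 9 tested genes with 7 positive, and 0 were called. Naip2 was at 1.40 ± 0.571 CPM in controls and 2.36 ± 0.163 CPM in cKO (SD, n = 3; log2 fold change 0.77, edgeR adjusted p = 0.719), and Naip5 had 0.51. Naip2, Naip5 and Naip6 are close copies that also act as inflammasome receptors in myeloid cells, so reads may be shared among them and their values are uncertain. Microglia markers were higher in the same libraries, as given above, and their part in these values was not tested. Of the other cyclin-dependent kinase inhibitors 6 were tested and 0 called. Cdkn2b had -0.67 from 1.51 CPM (adjusted p = 0.812) and Cdkn1c, p57, had -0.43. Control replicate 3, the library that stood apart, had the most Cdkn1c at 20.9 CPM, while the other controls at 12.9 and 9.94 CPM overlapped cKO at 11.2, 11.7 and 9.60 CPM. Cdkn1b, p27, an inhibitor with a known role in precursor cell cycle exit, was at 79.9 ± 7.18 CPM in controls and 81.3 ± 1.89 CPM in cKO.

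Relatives of the 10 genes held no called gene. Of 12 tested, 0 were called, with log2 fold changes from -0.33 to 0.20. Sesn1, the sestrin that also answers to p53, had 0.12, and it had the smallest p of these. Eda, the gene of the ligand that EDA2R binds in one of its forms, was at 15.5 ± 2.57 CPM in controls and 14.4 ± 0.347 CPM in cKO (SD, n = 3; log2 fold change -0.11). Edar, the receptor for the other form, was near 1 CPM in both groups, and Edaradd, its adaptor, had -0.33. Neither Eda nor Edar was called, and Eda2r itself was not called in the main fit. Edar had 66 reads in each group and a wide interval (-1.18 to 0.65), so its missing call says little. Bid, Bak1, Cdkn1c and Ei24 share exonic bases with genes of the other strand, which makes their counts less certain. Over all 92 tested genes of these lists, 0 were called, 7 had an unadjusted p under 0.05, against 6.27% of all tested genes, and no log2 fold change exceeded 1 in size.

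**Figure D5:**
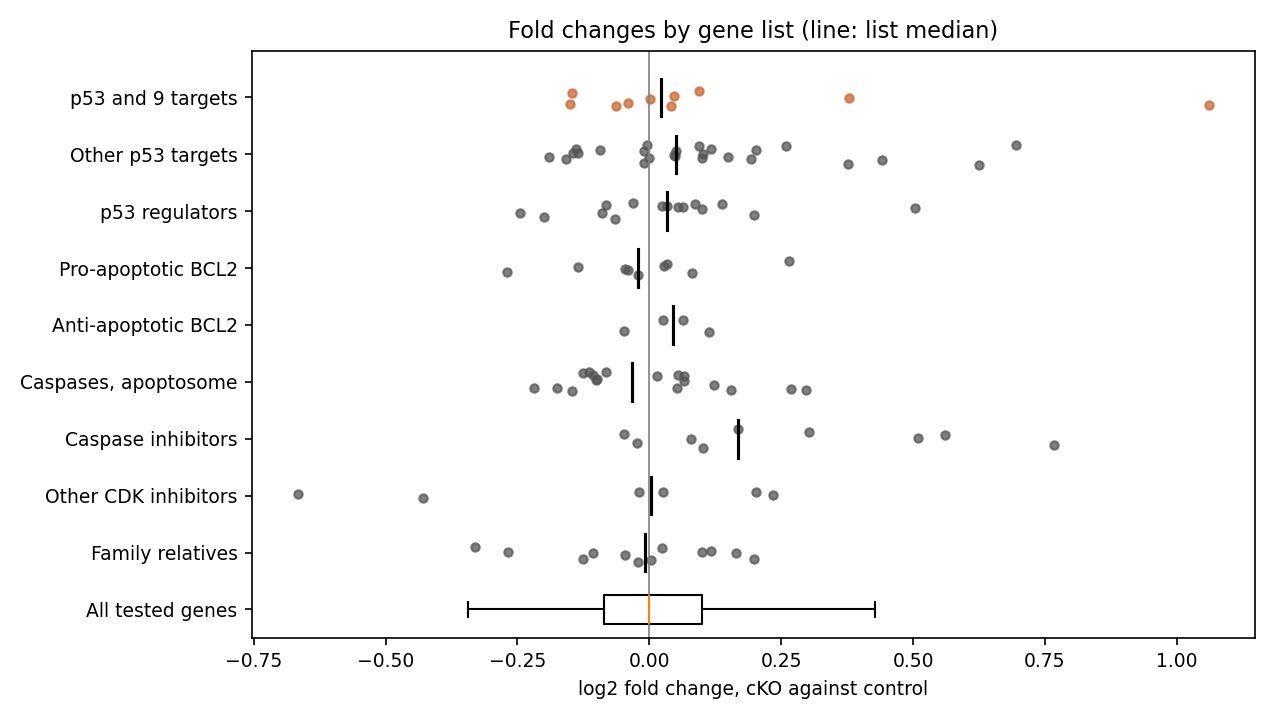
log2 fold change of each tested gene by list, with a black line at the list median and a box for all tested genes (quartiles, whiskers at 5 and 95 percent). The list medians lie between -0.03 and 0.17, and Eda2r at 1.06 is the rightmost point.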

How the data were processed

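Forebrain RNA of 3 cKO and 3 control mice (integrity number above 6.8) was enriched for poly-A and sequenced as directional libraries, per the labels' protocols. One table deposited by the authors gives raw read counts for each Ensembl gene. The deposited FPKM values equalled those counts divided by 1 length per gene and the table total, since this length came out whole within 0.01 bases in 100% of values. Per the submitters' processing notes the tools were CASAVA, STAR 2.5, HTSeq 0.6.1 and DESeq on mm10, with no roles stated. Whether counting used strand, and with which annotation, is not given in the sources used here.

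Counts were filtered by filterByExpr (minimum count 10, minimum total 15), scaled by TMM and tested two-sided with edgeR 4.0.16 (robust quasi-likelihood test, R 4.3.3). Benjamini-Hochberg adjustment ran over all 16938 tested genes, with calls under 0.05. The fit was tested on simulated data. Single values were also compared by an exact permutation test. Every pair of libraries differed beyond sampling noise (chi-square per degree of freedom 4.34 to 23.8). Alternatives were other scalings, filters, tests (DESeq2 1.42.0, limma 3.58.1), FPKM on a log2 scale, a replicate block and leaving out each library.

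The 10 genes and the further lists (other p53 targets, p53 regulators, BCL2 family, caspases, caspase inhibitors, cyclin-dependent kinase inhibitors, family relatives, cell markers) were chosen with earlier results of these data known. Endothelial and red blood cell markers were read as well: 6 and 5 genes, 0 called in each. From each list but the cell markers, which are given as counts and sums, called genes and the 2 with the smallest p were named, apart from 1 gene that is not reported here. Genes named outside this rule were chosen after their values were seen.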

Additional observations from a re-analysis of the deposited data

How the results depend on the processing

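None of the 18 alternatives called a gene of the further p53 and apoptosis lists, and 1 called a gene of the 10: Eda2r with no filter (log2 fold change 1.07, edgeR adjusted p = 0.0342). Eda2r was not tested on FPKM values filtered at a mean of 0.5, which left Pmaip1 alone of the 2 genes with groups apart. Of the 10, those wholly lower in cKO numbered 0 in the full set, against 5.86% of all tested genes. Leaving out a library gave 0 to 2. Groups separate more easily with fewer libraries, and no share of all tested genes is given for those fits, so this count is not read as a change. Directions within noise of 0 turned. Bbc3, at 0.00, was at -0.00 with DESeq2 size factors (-1.27e-04) and the DESeq2 test (-1.01e-04), at -0.0055 by library size alone and at -0.0909 by limma-voom. Leaving out a library gave Bbc3 -0.0953 to 0.0874, Trp53 -0.172 to 0.0432, Cdkn1a -0.171 to 0.0457, Ccng1 -0.0534 to 0.149 and Bax -0.0189 to 0.0729.

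Counts over the whole table moved more. Against 45 called genes (10 higher, 35 lower), there were 111 with no filter (50 higher, 61 lower), 113 by DESeq2 (51 and 62), 24 on either filtered log2(FPKM) scale (4 and 20) and 21 unfiltered (3 and 18). Higher genes numbered 17 by limma-voom and 6 without robust dispersion. Leaving out a library gave 28 to 60 genes, 4 to 19 of them higher. With the replicate block, 32 genes were called, 5 of them higher, and Eda2r had an adjusted p of 0.309. Same-numbered mice did not deviate together over all tested genes (r from -0.05 to 0.01 over 3 pairs), so the numbers are not taken as a pairing. The summed level of the 5 red blood cell markers, however, fell with replicate number in both groups. It was 187, 43.4 and 7.98 CPM in controls and 114, 18.3 and 9.46 CPM in cKO, and the reason was not tested. Depth limits Pmaip1 and Eda2r most, with at most 84 counts per library; the causes of these changes were not tested.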

Other observations

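Eda2r, Tnfrsf10b and Tnfrsf1a all belong to the TNF receptor superfamily, a family of cell surface receptors that includes the death receptors. The family was gathered by symbol after these values had been seen, so its counts are a description. Of 24 tested members 12 had a positive log2 fold change and 0 were called by edgeR, with 6 at an unadjusted p under 0.05, where 6.27% of all tested genes had one, and a median of 0.00. Besides Eda2r, the smallest p belonged to Tnfrsf1a (log2 fold change 0.42, 95% confidence interval 0.20 to 0.64, edgeR adjusted p = 0.205). Tnfrsf21, death receptor 6, was at 94.0 ± 11.4 CPM in controls and 80.7 ± 0.622 CPM in cKO (SD, n = 3 mice each; log2 fold change -0.22, edgeR adjusted p = 0.642). Fas, the receptor of Fas ligand and another p53 target, was at 1.37 ± 0.245 CPM in controls and 2.12 ± 0.575 CPM in cKO, with overlapping groups (log2 fold change 0.63, edgeR adjusted p = 0.785).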
